A study of Mus musculus with 27 samples.

Results

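Neural stem cells of the adult mouse subventricular zone were profiled through their ribosomes, and the recovered mRNA was set against the background that the same immunoprecipitation picks up from tissue without a tag. The comparison takes 5 of the 27 libraries of the study, chosen by their titles: 2 NSC immunoprecipitates (NSC is the neural stem cell label) and 3 no-HA controls. The NSC libraries came from TiCRY mice, which carry a tamoxifen-inducible Cre (CreER) under Tlx, an eYFP reporter and Rpl22.HA, the RiboTag allele, in which Cre switches Rpl22, a protein of the large ribosomal subunit, to an HA-tagged form. The controls are labelled as mixed cells without HA. Control 1 has a TiCRY library name that ends in a minus sign, and controls 2 and 3 have names that read Cre-. The labels do not spell out which alleles each control lacks. All mice were males of 8 to 12 weeks on a C57BL/6 background, and the protocol text shared by all libraries gives tamoxifen at 200 mg per kg by oral gavage. The labels do not spell out the time since tamoxifen or how many mice gave each immunoprecipitate. The p-values therefore measure a spread between libraries, and that spread was estimated over all 15 immunoprecipitation libraries of the study. As a second point of comparison, 2 ENB immunoprecipitates (early neuroblasts, from DiCRY mice with CreER under Dcx and the same Rpl22.HA and eYFP alleles) were taken from the same tissue.

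RiboTag works on whole tissue: the homogenate is incubated with an anti-HA antibody, and mRNA held by tagged ribosomes is pulled down with beads. mRNA of untagged cells sticks to antibody and beads to some degree, and a tissue without HA measures that background. Adult neural stem cells of this zone are slowly dividing astrocyte-like cells. On activation they take up the cell cycle, pass through a transit-amplifying stage marked by Dlx genes, and give rise to migrating neuroblasts. In such bulk samples fewer cells of a type and less RNA per cell cannot be told apart.

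Library totals were 6325479 and 7734087 counts in the NSC immunoprecipitates and 5960357, 6060242 and 6625770 counts in controls 1 to 3. Genes with at least 1 count numbered 18580 and 19982 in the NSC libraries, against 19692, 23921 and 23424 in the controls. Control 1 stood apart from the other 2 controls: its Spearman correlation across genes was 0.938 with control 2 and 0.936 with control 3, while controls 2 and 3 correlated at 0.977 and the 2 NSC libraries at 0.943. Control 1 also shares its second barcode index with both NSC libraries, whereas controls 2 and 3 carry other indexes. The labels do not say whether that index marks a batch. Results are therefore also given within the index, with control 1 as the only control and the spread taken from the other groups of the fit.

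Levels are CPM (a gene's counts scaled to a library of 1e+06 counts, with TMM factors). Differences are log2 fold changes ± SE of NSC immunoprecipitates over no-HA controls, from the quasi-likelihood test of edgeR, with p-values adjusted by Benjamini-Hochberg over all 19066 genes tested and a threshold of 0.05. Of these genes 1668 were higher in the NSC immunoprecipitates (8.75%) and 1257 were lower (6.59%). The 2 NSC libraries did not overlap the 3 controls in 1666 of the higher and 1233 of the lower genes, but also not in 6079 of 16141 genes that were not called (8978 of all 19066), so separation of 2 libraries from 3 is common in these data. A log2 difference of at least 1 was reached by 1357 higher and 1025 lower genes. The median over all genes tested was -0.14, and -0.25 with scaling by library totals. The higher genes made up 57.0% of calls, against 46.5% when only library totals were used for scaling, 44.7% with DESeq2 and 70.9% within the second index.

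The number of calls depended on single libraries. Leaving out NSC replicate 2 left 546 higher and 504 lower genes, leaving out control 2 left 1006 and 614, and leaving out control 3 left 858 and 531. Without NSC replicate 1 there were 1364 higher and 641 lower genes. Within the second index 339 genes were higher and 139 lower. Past the threshold without any 1 of the 5 libraries were 467 higher and 116 lower genes. The genes described first in a group below are not always among them. Of 70 genes past the threshold that were named by rule, 34 kept their call without any 1 library and 27 kept it within the index.

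The 3 genes that mark the stem cell immunoprecipitate were all higher. Prss56 (ENSMUSG00000036480, GRCm38.p6 chromosome 1, 87183102 to 87188405), a serine protease, had 178 and 185 CPM in the NSC immunoprecipitates, against 0, 3.52 and 6.03 CPM in controls 1 to 3 (5.81 ± 0.76, adjusted p = 0.00028). The radial glia fatty acid binding protein Fabp7 had 187 and 315 CPM, against 32.9, 19.7 and 19.2 CPM in the controls. Mcm2, a subunit of the helicase that unwinds DNA for replication, had 113 and 147 CPM in the NSC immunoprecipitates and 4.59, 7.65 and 8.18 CPM in the controls. For all 3 genes both NSC libraries lay far above every control, also above control 1 with the shared index, where the differences were 2.90 for Fabp7 (adjusted p = 0.011) and 4.79 for Mcm2 (adjusted p = 0.013). Prss56 was called within the index too (adjusted p = 0.0024), with no fold given because control 1 had no count.

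The genes of the construct itself bear on the labels. Nr2e1, the gene of the orphan nuclear receptor Tlx, whose regulatory sequence drives the Cre, had 106.5 and 168 CPM in the NSC immunoprecipitates, against 25.4, 9.94 and 18.7 CPM in the controls (2.93 ± 0.64, adjusted p = 0.0073). The groups did not overlap, but the adjusted p was 0.071 without NSC replicate 2 and 0.18 within the index. Because Tlx chose the cells, this level is not independent of the design. Rpl22, the gene that carries the tag, had 49.8 and 40.1 CPM in the NSC immunoprecipitates, against 43.1, 54.0 and 49.1 CPM in the controls. The Rpl22 values overlapped (-0.12 ± 0.26, adjusted p = 0.79). The files count Rpl22 as 1 gene, so tagged and untagged alleles are not separated.

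**Figure D1:**
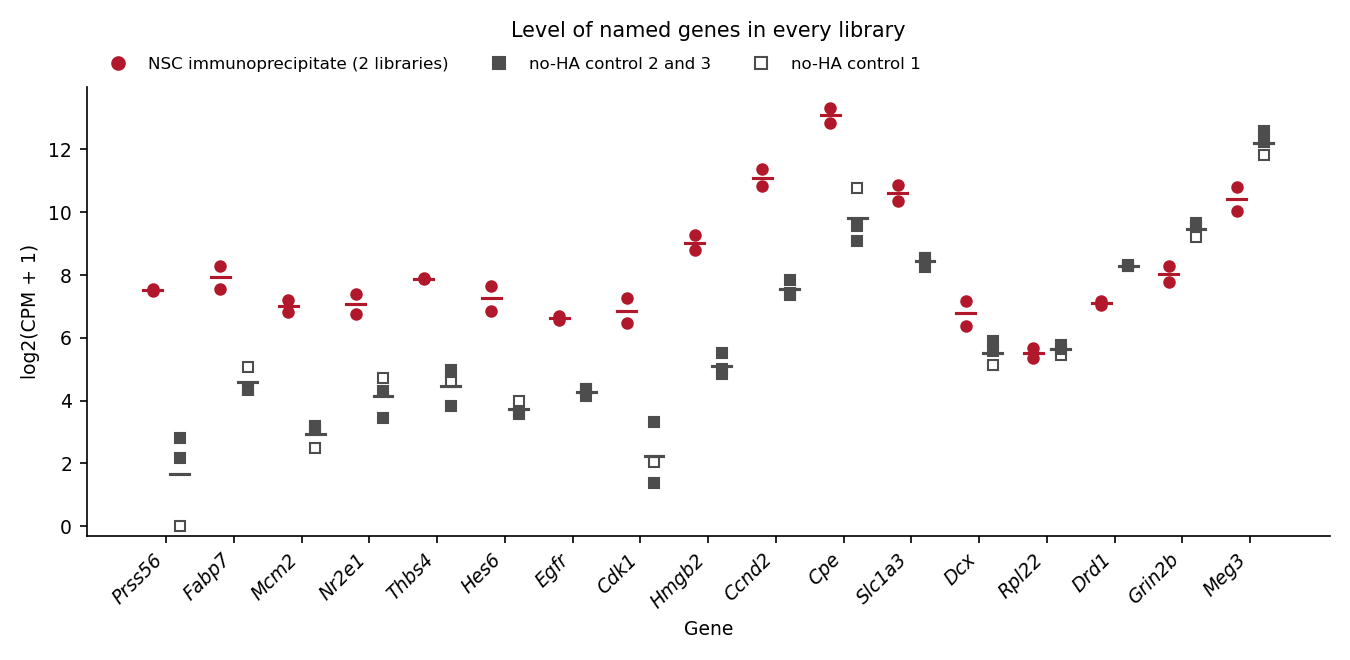
Level of 17 genes in every library, on a log2(CPM + 1) axis. Red circles are the 2 NSC immunoprecipitates, filled grey squares no-HA controls 2 and 3, the open square control 1, and bars are group means; the genes from Prss56 to Dcx lie above the controls in both NSC libraries, Rpl22 overlaps, and Drd1, Grin2b and Meg3 lie below.

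Genes of radial glia and neural stem cells were higher as a group. Of 25 listed genes 18 rose, none fell, and the median difference was 1.77, against -0.14 over all genes tested and 8.75% of all genes called higher. Cpe, a carboxypeptidase that processes neuropeptides, was the most abundant of all genes called with a log2 difference of at least 1. It had 7382 and 10310 CPM in the NSC immunoprecipitates, against 1750, 754 and 537 CPM in the controls (3.13 ± 0.45). Both NSC libraries lay above every control, and control 1 was the highest control. The intermediate filament gene Vim rose by 3.09 ± 0.41 and the tetraspanin Cd63 by 2.23 ± 0.32. The glutamate transporter Slc1a3 had 1326 and 1871 CPM in the NSC immunoprecipitates, against 372.5, 368 and 301 CPM in the controls, and every NSC value was higher (adjusted p = 0.00021). Thrombospondin 4 (Thbs4), a secreted glycoprotein, had 234 and 238 CPM in the NSC immunoprecipitates and 22.9, 30.8 and 13.2 CPM in the controls, with no overlap (3.40 ± 0.55). Veph1 had 8.90 and 18.9 CPM in the NSC immunoprecipitates and 0, 0.153 and 0.287 CPM in the controls, too few control counts for a fold. Not every stem cell gene differed: Prom1, which encodes prominin 1, had 19.5 and 27.4 CPM in the NSC immunoprecipitates, against 17.0, 21.1 and 10.8 CPM in the controls (adjusted p = 0.43). Hopx and Lrig1, genes linked to quiescent stem cells in several tissues, differed by 0.35 ± 0.86 and 0.15 ± 0.32 and did not pass the test. The list held 11 higher genes without NSC replicate 2, and 6 within the index with a median of 1.57.

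Stem cell transcription factors were higher too, with fewer calls that were independent of a single library. Of 26 genes 14 rose (53.8%, beside 8.75% of all genes tested) and none fell, with a median of 1.53. Nuclear factor I A (Nfia), a regulator of glial fate and stem cell quiescence, had 282 and 341 CPM in the NSC immunoprecipitates and 113, 90.6 and 88.1 CPM in the controls, without overlap (1.68 ± 0.24). Id2 and Id3, which inhibit helix-loop-helix factors, rose by 1.56 ± 0.23 and 1.65 ± 0.26, and Sox1 rose by 2.29 ± 0.41. Sox9 rose by 2.33 ± 0.48, Lhx2 by 1.96 ± 0.37 and the Notch target Hes5 also rose (adjusted p = 0.0056), but without NSC replicate 2 their adjusted p-values were 0.052, 0.072 and 0.065. Sox21 had the largest difference in the list (3.07 ± 1.00, adjusted p = 0.048), and it was lost without any of NSC replicates 1 and 2 or controls 2 and 3 (adjusted p from 0.094 to 0.17). Pax6 had 5.15 and 49.1 CPM in the 2 NSC libraries, which lay on either side of the controls at 27.2, 27.8 and 11.1 CPM. The list held 4 higher genes and 1 lower without NSC replicate 2, and 2 higher within the index (median 1.25).

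Genes of stem cell activation and transit amplification had a larger median, 2.45. Of the 21 genes 16 rose (76.2%, beside 8.75% of all genes tested), with none lower. Their summed level was 3202 and 4608 CPM in the NSC immunoprecipitates, against 600, 592 and 492 CPM in the controls. Hes6, an inhibitor of Hes1, had 115 and 200.5 CPM in the NSC immunoprecipitates, against 14.9, 10.9 and 11.3 CPM in the controls (3.67 ± 0.38, adjusted p = 4.8e-05). Both NSC libraries lay far above every control. The interneuron lineage factors Dlx2 and Dlx1 rose by 3.54 ± 0.40 and 2.71 ± 0.39. Cyclin D2 (Ccnd2), which drives entry into the cell cycle, had 1818 and 2641 CPM in the NSC immunoprecipitates and 171, 230 and 165 CPM in the controls (3.56 ± 0.36). Mycn, a proliferation factor, and Gadd45g, a stress and differentiation gene, rose by 2.65 ± 0.35 and 2.25 ± 0.23. The EGF receptor gene Egfr had 103 and 93.6 CPM in the NSC immunoprecipitates, against 19.5, 19.6 and 16.5 CPM in the controls, and no library of the groups overlapped. Each of these genes from Hes6 to Egfr kept its call without any 1 library and within the index. Tead2, a Hippo pathway factor, rose by 3.99 ± 0.95 but had an adjusted p of 0.073 without NSC replicate 2. Cyclin D1 (Ccnd1) differed by 0.85 ± 0.34 and did not pass the test (adjusted p = 0.092). The list held 10 higher genes without NSC replicate 2 and 8 within the index (median 2.31).

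Cell cycle genes rose together, and the mitosis list had the highest median of the 28 lists. Of 52 DNA replication genes 38 rose and none fell, with a median of 2.32. Of 52 mitosis genes 38 rose and none fell, with a median of 3.06. Each share is 73.1%, beside 8.75% of all genes tested. Among replication genes the maintenance methylation cofactor Uhrf1 had 101.5 and 150 CPM in the NSC immunoprecipitates, against 1.97, 11.8 and 3.88 CPM in the controls (4.42 ± 0.60). Every NSC value was above every control value. The ribonucleotide reductase subunit Rrm2 rose by 4.01 ± 0.55, the helicase subunits Mcm6 and Mcm5 by 3.96 ± 0.46 and 3.37 ± 0.47, and the sliding clamp Pcna by 2.74 ± 0.24. Pclaf, a PCNA-binding protein outside the list, rose by 4.41 ± 0.45. The maintenance methyltransferase Dnmt1 rose by 1.72 ± 0.22. Among mitosis genes, Cdk1, the kinase that starts mitosis, had 87.9 and 151.5 CPM in the NSC immunoprecipitates, against 3.11, 8.87 and 1.58 CPM in the controls (4.72 ± 0.72, adjusted p = 0.00077). The ubiquitin-conjugating enzyme Ube2c had 102 and 143 CPM in the NSC immunoprecipitates and 0, 11.0 and 6.89 CPM in the controls. No value of either gene overlapped between groups. Topoisomerase Top2a rose by 3.52 ± 0.42, cyclin A2 (Ccna2) by 3.45 ± 0.33 and the passenger complex subunit Cdca8 by 3.69 ± 0.40. The mitotic kinase Pbk, outside both lists, rose by 4.97 ± 0.87.

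Several cell cycle genes were less secure, among them Cdca5, which is outside both lists. Aurkb, the kinase of the passenger complex, rose by 4.62 ± 1.04 and the cohesin regulator Cdca5 by 4.96 ± 1.12, with adjusted p-values of 0.10 and 0.062 without NSC replicate 2. Mki67, the gene of the proliferation antigen Ki-67, had 22.8 and 23.5 CPM in the NSC immunoprecipitates, against 9.66, 23.6 and 19.2 CPM in the controls. The Mki67 values overlapped and did not pass the test (0.40 ± 0.89, adjusted p = 0.79). The replication list held 23 higher genes without NSC replicate 2, 25 without control 3 and 18 within the index (median 2.24). The mitosis list held 14, 24 and 16 under the same settings, and its median within the index was 2.99.

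Known letters for cell cycle control were searched in the promoters of the genes of these 2 lists. All listed genes with a window were searched, called or not. The shares of the lists thus describe how the lists were chosen and do not depend on the measured levels. E2F factors switch on replication genes before S phase, and the cell cycle homology region (CHR) times mitotic genes. RefSeq promoter windows of GRCm38.p6, from 250 bases before to 50 after a gene's start, were searched on both strands for TTTCCCGC, TTTCGCGC, TTTGCCGC or TTTGGCGC (E2F letters) and for TTTGAA or TTCGAA (CHR letters). E2F letters occurred in 18 of 42 replication genes with a window (42.9%) and in 3 of 44 mitosis genes (6.82%), against 2.60% of 27025 genes with a window. CHR letters occurred in 36 of 44 mitosis genes (81.8%) and in 8 of 42 replication genes (19.0%), against 21.7% of all. A window was available for 12641 of the 19061 tested genes, and the others were not searched. Among those 12641, E2F letters occurred in 4.26% and CHR letters in 16.5%. The CHR share of the replication genes thus lies close to both backgrounds. Of the 1284 genes called higher that had a window, 7.24% held E2F letters and 16.3% held CHR letters. A match is a description of the letters and not a bound site. The examples are called genes with large differences, chosen because the 150 bases before their start hold the letters. Each therefore has a match by choice. These 150 bases are given 5′ to 3′ on the gene's strand, with matches in capitals.
Mcm6, E2F letters, GRCm38.p6 chr1:128359706-128359855, minus strand: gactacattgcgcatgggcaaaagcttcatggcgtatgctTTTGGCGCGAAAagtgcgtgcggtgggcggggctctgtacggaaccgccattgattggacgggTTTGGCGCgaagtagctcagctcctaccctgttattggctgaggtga
Mcm5, E2F letters, GRCm38.p6 chr8:75109359-75109508, plus strand: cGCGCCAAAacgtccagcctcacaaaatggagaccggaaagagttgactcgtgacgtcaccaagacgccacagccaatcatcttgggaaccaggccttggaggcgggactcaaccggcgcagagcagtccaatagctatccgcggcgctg
Cdc6, E2F letters, GRCm38.p6 chr11:98908001-98908150, plus strand: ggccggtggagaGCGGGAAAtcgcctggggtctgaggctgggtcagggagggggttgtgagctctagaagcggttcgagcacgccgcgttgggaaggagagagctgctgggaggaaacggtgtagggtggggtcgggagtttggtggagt
Cdk1, CHR letters, GRCm38.p6 chr10:69352913-69353062, minus strand: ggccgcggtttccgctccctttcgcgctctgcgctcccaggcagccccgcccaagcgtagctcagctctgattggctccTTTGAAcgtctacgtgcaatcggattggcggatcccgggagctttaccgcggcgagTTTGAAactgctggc
Ube2c, CHR letters, GRCm38.p6 chr2:164769779-164769928, plus strand: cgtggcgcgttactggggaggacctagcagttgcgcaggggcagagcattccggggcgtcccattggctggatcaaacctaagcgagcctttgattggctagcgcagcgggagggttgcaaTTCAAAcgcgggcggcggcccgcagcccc
Cdc20, CHR letters, GRCm38.p6 chr4:118437344-118437493, minus strand: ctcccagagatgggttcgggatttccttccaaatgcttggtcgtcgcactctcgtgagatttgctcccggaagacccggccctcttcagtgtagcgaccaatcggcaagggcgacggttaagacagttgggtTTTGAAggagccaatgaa
The 2 E2F matches at the left of the Mcm6 window overlap, and the Cdk1 window also holds 1 match of E2F letters, left in lower case. Cdc6, which loads the replicative helicase, had 17.6 and 30.0 CPM in the NSC immunoprecipitates, against 0, 1.38 and 2.44 CPM in the controls (4.20 ± 1.05), and its adjusted p was 0.057 without control 2 and 0.11 without NSC replicate 2. Cdc20, an activator of the anaphase-promoting complex, had 66.2 and 139 CPM in the NSC immunoprecipitates and 13.4, 8.87 and 3.16 CPM in the controls (3.60 ± 0.92). It was lost without control 2, control 3 or NSC replicate 2, with adjusted p-values of 0.057, 0.072 and 0.13.

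Chromatin genes rose with them: 23 of 28 were higher (82.1%, beside 8.75% of all genes tested) and none lower, with a median of 1.46. The high mobility group gene Hmgb2 had the smallest p-value of all genes tested. It had 444 and 614 CPM in the NSC immunoprecipitates, against 31.3, 44.4 and 27.6 CPM in the controls (3.94 ± 0.26, adjusted p = 1.1e-06), and the lowest NSC value was far above the highest control. The histone variant genes H2afv, H2afz and H2afx rose by 2.57 ± 0.30, 2.40 ± 0.33 and 2.16 ± 0.31, the lamin gene Lmnb1 by 2.85 ± 0.38 and the chromatin protein gene Dek by 1.42 ± 0.23. The Polycomb subunits Suz12 and Eed differed by 0.41 ± 0.31 and 0.70 ± 0.41 and did not pass the test. The list held 12 higher genes without NSC replicate 2, 15 without control 2 and 8 within the index (median 1.19).

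**Figure D2:**
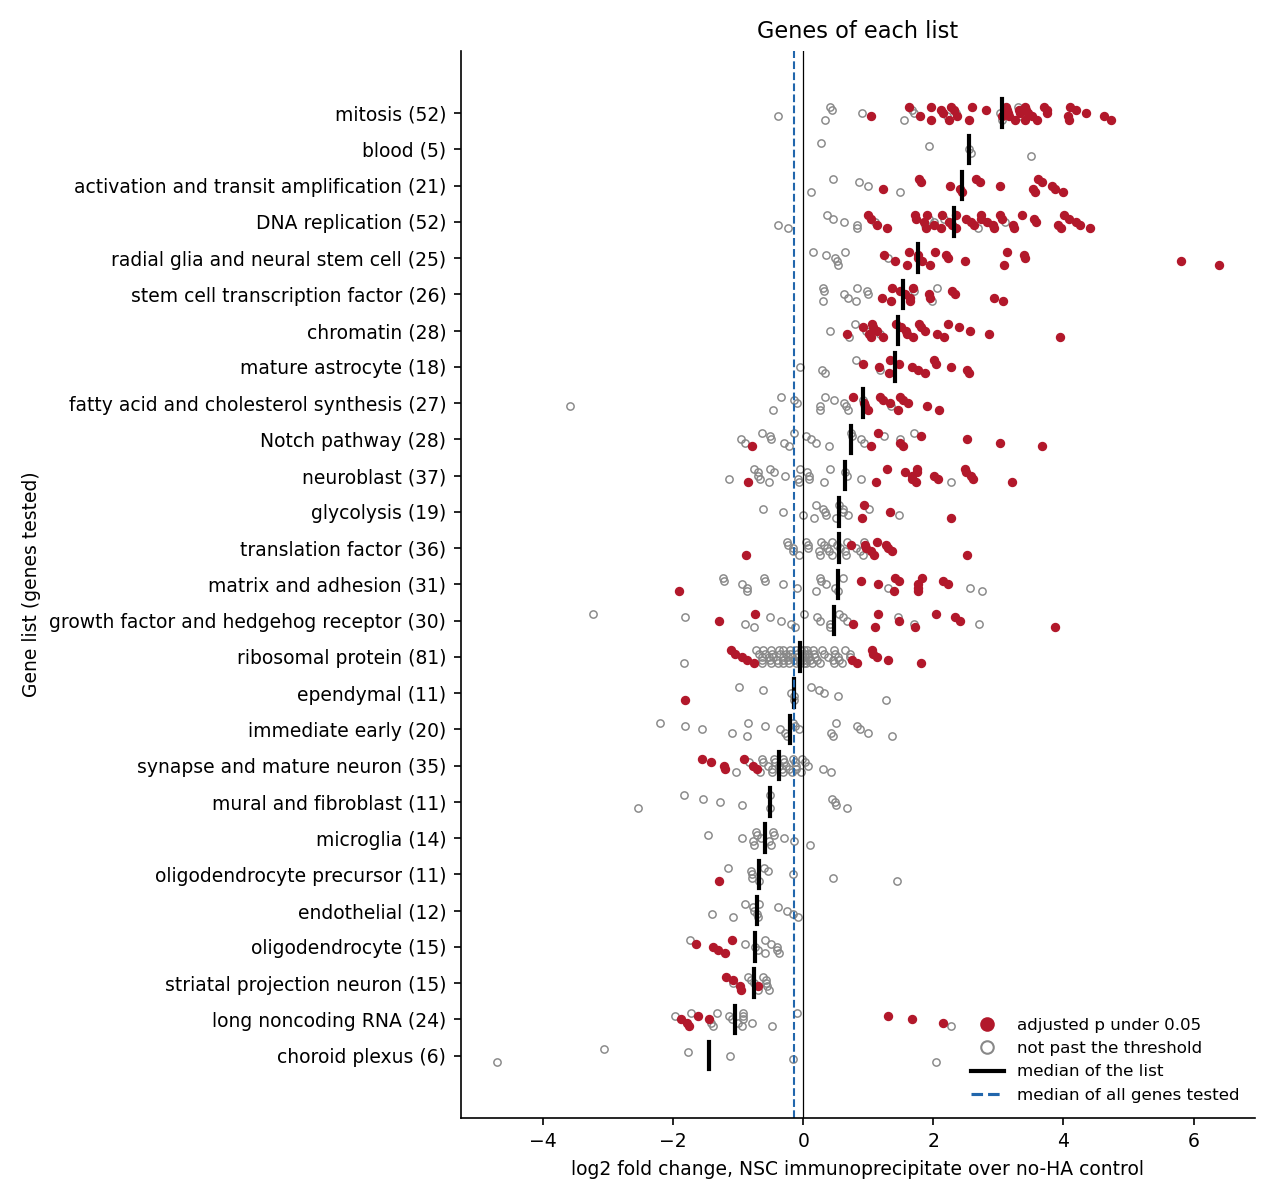
Each point is a gene of 1 list, placed by its log2 fold change of NSC immunoprecipitates over no-HA controls; filled points passed the threshold, black bars are list medians and the dashed line is the median of all genes tested (-0.14). Mitosis, activation, DNA replication and radial glia lists lie to the right, and oligodendrocyte, striatal neuron and long noncoding RNA lists to the left.

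Neuroblast genes split. Of 37 measured genes 15 rose and 1 fell, with a median of 0.64. These are 40.5% and 2.7%, beside 8.75% and 6.59% of all genes tested. Igfbpl1, an IGF-binding protein family gene, had 37.5 and 89.3 CPM in the NSC immunoprecipitates, against 7.54, 6.88 and 6.17 CPM in the controls (3.21 ± 0.43). The axon guidance mediator Dpysl3 rose by 2.58 ± 0.36, the surface antigen Cd24a by 2.49 ± 0.42 and the long noncoding RNA Dlx6os1 by 1.67 ± 0.32. Each of the 4 was called without any 1 library and within the index. The homeobox factor Meis2 fell by 0.85 on the log2 scale (adjusted p = 0.026), and it was lost without control 2, control 3 or NSC replicate 2 (adjusted p from 0.055 to 0.23). The doublecortin gene Dcx had 81.6 and 145 CPM in the NSC immunoprecipitates, against 33.7, 58.6 and 46.7 CPM in the controls (1.29 ± 0.34, adjusted p = 0.020), with adjusted p-values of 0.24 without NSC replicate 2, 0.063 without control 3 and 0.053 without control 1. The list held 9 higher and 2 lower genes without NSC replicate 2, and 6 higher within the index.

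Markers of mature astrocytes moved with the stem cell genes. Of 18 genes 13 rose (72.2%, beside 8.75% of all genes tested) and none fell, with a median of 1.41. Apoe, the lipid carrier, had 6335 and 8283 CPM in the NSC immunoprecipitates, against 1677, 1031 and 1039 CPM in the controls (2.55 ± 0.38), and the gap junction gene Gja1 had 503 and 828 CPM, against 194, 185 and 114 CPM in the controls (2.02 ± 0.34). Both genes were higher in both NSC libraries than in every control. The glycolytic enzyme Aldoc rose by 2.27 ± 0.41, the membrane protein Mlc1 by 2.04 ± 0.34, the folate enzyme Aldh1l1 by 1.87 ± 0.30 and the glutamate transporter Slc1a2 by 1.67 ± 0.31. S100b, a calcium-binding protein of mature astrocytes, had 106 and 114 CPM in the NSC immunoprecipitates, against 185, 78.8 and 76.5 CPM in the controls, and differed by -0.04 ± 0.32. The number of higher genes was 7 without NSC replicate 2 and 0 within the index (median 1.40). Stem cells of this zone and mature astrocytes share most of these genes, so the list does not separate the 2 cell types, and the part of tagged astrocytes in the result was not tested.

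Markers of other cells of the tissue were lower or did not pass the test. Oligodendrocyte genes summed to 9257 and 8811 CPM in the NSC immunoprecipitates, against 19020, 20090 and 23570 CPM in the controls, and 5 of 15 were lower with none higher (median -0.74, beside 6.59% of all genes called lower). The myelin basic protein gene Mbp had 2147 and 1836 CPM in the NSC immunoprecipitates and 4851, 3919 and 4956 CPM in the controls (-1.20 ± 0.28, adjusted p = 0.011). The Mbp groups did not overlap, yet the adjusted p was 0.11 without NSC replicate 2. Aspa, which breaks down N-acetylaspartate, had the lowest difference of the called genes in the list (-1.65 ± 0.47, adjusted p = 0.028, and from 0.070 to 0.16 without either NSC replicate, control 2 or control 3). Of 15 striatal projection neuron genes 5 were lower (median -0.76), led by the dopamine receptor Drd1 with 131 and 142 CPM in the NSC immunoprecipitates, against 309, 317 and 309 CPM in the controls. Drd1 did not overlap (-1.19 ± 0.27), with adjusted p-values of 0.071 and 0.067 without NSC replicates 1 and 2. Of 35 synapse and mature neuron genes 7 were lower (median -0.37), led by the scaffold gene Shank3 (-1.55 ± 0.50, adjusted p = 0.045, and from 0.059 to 0.27 without either NSC replicate, control 2 or control 3), and the NMDA receptor subunit Grin2b (-1.41 ± 0.23, adjusted p = 0.0013) kept its call without any 1 library. Without NSC replicate 2 the lower genes numbered 0 oligodendrocyte, 0 striatal and 1 synapse genes. Without NSC replicate 1 they numbered 1, 1 and 2, without control 2 they numbered 2, 3 and 4, without control 3 they numbered 1, 1 and 3, and within the index all 3 lists had 0.

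No microglia gene of 14, endothelial gene of 12, mural cell and fibroblast gene of 11, choroid plexus gene of 6 tested or blood gene of 5 passed the test in either direction. Microglia genes summed to 677 and 567 CPM in the NSC immunoprecipitates, against 1236, 920 and 652 CPM in the controls, and endothelial genes to 267 and 365 CPM, against 562, 380 and 432 CPM in the controls. The 5 blood genes summed to 52.1 and 173 CPM in the NSC immunoprecipitates, against 32.8, 15.3 and 16.1 CPM in the controls, the single marker list of another cell type besides astrocytes and neuroblasts with a median above 0 (2.54), and NSC replicate 2 had the highest sum. The part of blood cells in other results was not tested. Of 11 ependymal genes tested, Ccdc39, a cilium assembly gene, was lower. It had 15.6 and 14.8 CPM in the NSC immunoprecipitates and 52.6, 58.4 and 50.1 CPM in the controls, without overlap (-1.82 ± 0.33, adjusted p = 0.0025), and the call held without any 1 library and within the index. Of 11 oligodendrocyte precursor genes the growth factor receptor Pdgfra was lower (-1.30 ± 0.39, adjusted p = 0.037), with adjusted p-values from 0.083 to 0.15 without either NSC replicate, control 1 or control 2. The lower members, 8.33% of 12 listed ependymal and 9.09% of 11 precursor genes, are shares near the 6.59% of all genes tested. Of 20 immediate early genes, which respond to handling, none passed the test (median -0.20).

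**Figure D3:**
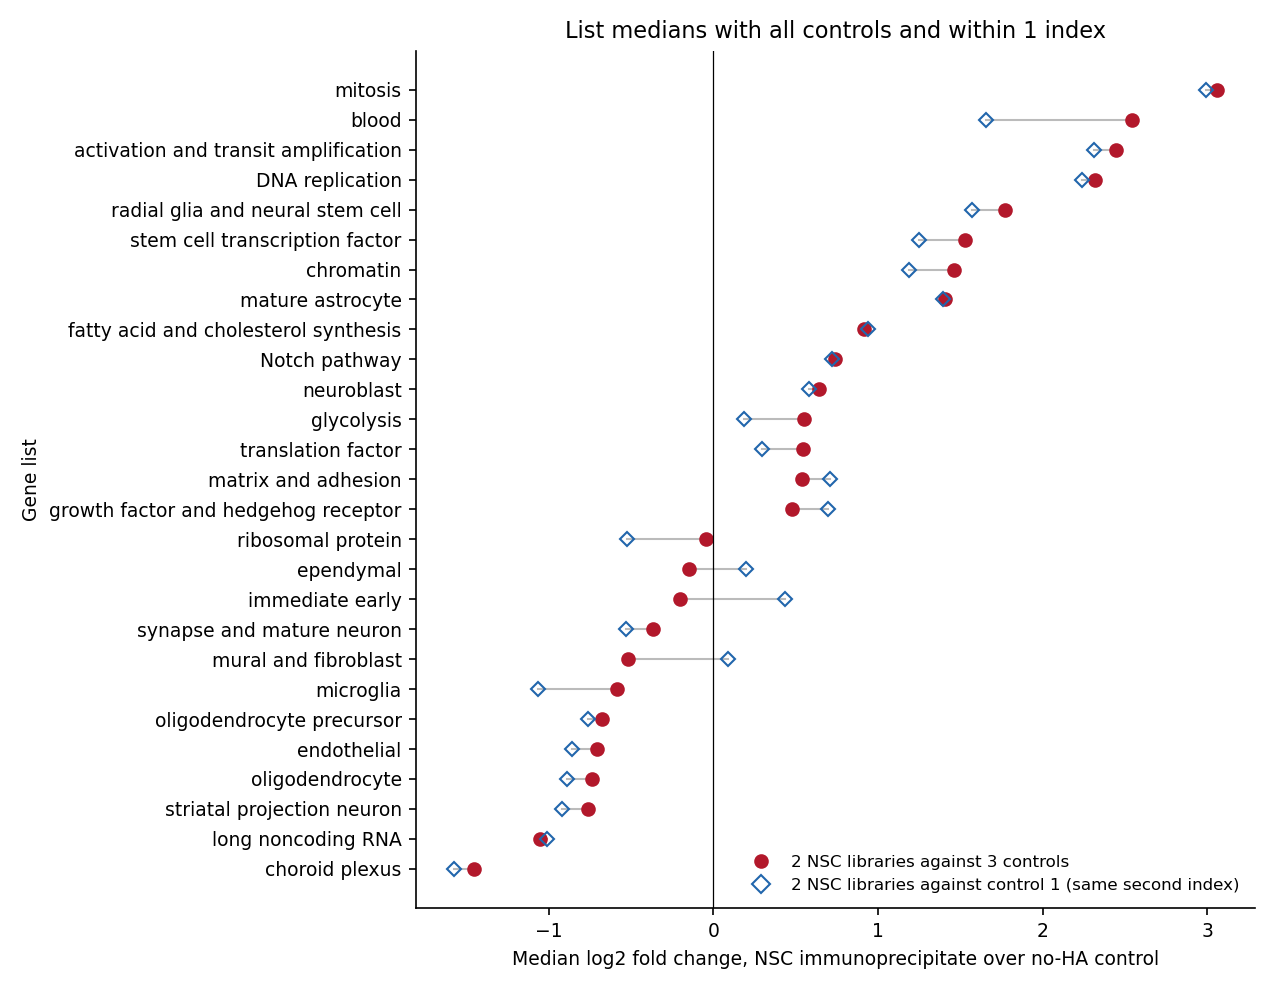
Median log2 fold change of each gene list with all 3 controls (red circles) and with control 1 alone, which shares the second barcode index of both NSC libraries (blue diamonds). The mitosis median is 3.06 with all controls and 2.99 within the index, and the ribosomal protein median is -0.04 with all controls and -0.52 within the index.

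Signalling genes were mixed. Over all genes tested 8.75% were called higher and 6.59% lower. Lower members were 3.57% of the Notch, 6.45% of the receptor and 3.23% of the matrix genes listed. Of 28 Notch pathway genes 8 rose and 1 fell (median 0.74). The ligand Dll3 had 25.6 and 21.8 CPM in the NSC immunoprecipitates, against 2.13, 3.52 and 3.01 CPM in the controls (3.03 ± 0.53). The receptor Notch2 had 116 and 126 CPM in the NSC immunoprecipitates and 18.7, 62.3 and 44.2 CPM in the controls (1.53 ± 0.36, adjusted p = 0.063 without NSC replicate 2). The groups did not overlap for either gene. Rfng, a glycosyltransferase that modifies Notch, was lower by a log2 difference of -0.79 ± 0.26 (adjusted p = 0.049), lost in every setting that left out an NSC library or control 2 or 3 (adjusted p from 0.094 to 0.28). Of 30 growth factor and hedgehog receptor genes tested 9 rose and 2 fell (median 0.48). The Wnt receptor Fzd1 had the largest difference, with 45.3 and 27.2 CPM in the NSC immunoprecipitates and 0, 5.97 and 1.44 CPM in the controls (3.86 ± 0.99, adjusted p = 0.075 without control 3 and 0.070 without NSC replicate 1). The ciliary neurotrophic factor receptor Cntfr rose by 2.33 ± 0.39 and the neurotrophin receptor Ntrk2 by 1.71 ± 0.33, while Lifr had 28.6 and 22.4 CPM in the NSC immunoprecipitates and 42.9, 43.3 and 41.1 CPM in the controls (-0.73 ± 0.23, adjusted p = 0.042, from 0.051 to 0.27 without any 1 library). The hedgehog transducer Smo rose by 2.04 ± 0.50, with adjusted p = 0.33 without NSC replicate 2. Of 31 matrix and adhesion genes 11 rose and 1 fell (median 0.54), with the proteoglycan Bcan at 1.82 ± 0.25 and N-cadherin (Cdh2) at 1.76 ± 0.28 called in every setting that left out a library. Fibronectin (Fn1) was the gene that fell, and its groups overlapped, with 3.43 and 13.1 CPM in the NSC immunoprecipitates and 11.5, 24.3 and 58.7 CPM in the controls. Fn1 had adjusted p-values of 0.052 without control 2, 0.18 without control 3 and 0.24 without NSC replicate 1. Without NSC replicate 2 the higher genes numbered 2 Notch, 5 receptor and 4 matrix genes. Without control 3 the higher Notch genes numbered 5 and the higher matrix genes 6, and within the index the 3 lists had 3, 2 and 3.

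Lipid synthesis genes rose in part. Of 27 fatty acid and cholesterol synthesis genes 13 were higher and none lower (median 0.91), beside 8.75% and 6.59% of all genes tested. The fatty acid desaturase Fads2 had 152 and 253 CPM in the NSC immunoprecipitates, against 38.3, 49.9 and 55.3 CPM in the controls (2.08 ± 0.30), with no overlap, and its neighbour in the pathway, Fads1, rose by 1.62 ± 0.23. The lipid synthesis regulator Srebf1 rose by 1.48 ± 0.24. The higher genes numbered 5 without NSC replicate 2 and 2 within the index. Of 19 glycolysis genes 4 rose and none fell (median 0.55), with 1 higher gene without NSC replicate 2, control 2 or control 3, and 2 without NSC replicate 1.

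Ribosomal protein genes did not move together against the control. Of 81 genes 7 were higher (8.64%) and 5 lower (6.17%), shares near the 8.75% and 6.59% of all genes tested, with a median of -0.04. Their summed level was 26660 and 28850 CPM in the NSC immunoprecipitates, against 39340, 26260 and 23320 CPM in controls 1 to 3. The sum of control 1 lay above every other library. Rps27l, a paralogue of Rps27, had 51.5 and 71.0 CPM in the NSC immunoprecipitates and 24.7, 17.1 and 10.3 CPM in the controls (1.82 ± 0.34, adjusted p = 0.0030). Rps27 itself had 263 and 359 CPM in the NSC immunoprecipitates and 801, 707 and 507 CPM in the controls (-1.11 ± 0.32, adjusted p = 0.031), and without 1 library other than control 3 its adjusted p ran from 0.064 to 0.20. The other 4 lower genes, Rpl37a, Rps26, Rpl23a and Rps19, each lost the call without at least 1 NSC library. Without control 1 the list had 18 higher genes and 1 lower (median 0.24), without control 2 it had 3 and 1, without control 3 it had 2 and 4, without NSC replicate 1 it had 6 and 0, and without NSC replicate 2 it had 1 and 0. Ribosomal protein genes have many near-identical copies in the genome, and how reads that fit several copies were counted is not given in the sources used here, so single members are uncertain. Of 36 translation factor genes 10 rose and 1 fell (median 0.55). These are 27.8% and 2.78%, beside 8.75% and 6.59% of all genes tested. With the second index as a term in the fit 1 factor was higher and none lower (median 0.26). Within the index the median was 0.30. The translation repressor Eif4ebp1 had 14.2 and 21.3 CPM in the NSC immunoprecipitates and 2.79, 3.21 and 3.30 CPM in the controls (2.51 ± 0.57, adjusted p = 0.080 without NSC replicate 2). The initiation factor Eif5b was lower (-0.88 ± 0.28, adjusted p = 0.044, and from 0.080 to 0.20 without either NSC replicate, control 2 or control 3). The factors called higher numbered 1 without NSC replicate 2, 4 without control 2, 3 without control 3 and 15 without control 1.

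Long noncoding RNAs were the list with the lowest median among those with 15 or more genes, -1.05, with 5 of 24 lower and 3 higher. These are 20.8% and 12.5%, beside 6.59% and 8.75% of all genes tested. Meg3, an imprinted nuclear RNA, had 1787 and 1043 CPM in the NSC immunoprecipitates, against 3610, 4859 and 6213 CPM in the controls (-1.79 ± 0.37, adjusted p = 0.0050 and 0.077 without NSC replicate 2). The groups did not overlap. Neat1, the scaffold of nuclear paraspeckles, was lower by a difference of -1.44 ± 0.33, Snhg11 by -1.87 ± 0.40, Rian by -1.61 ± 0.38 and Kcnq1ot1 by -1.75 ± 0.43, with adjusted p-values of 0.11, 0.093, 0.12 and 0.15 without NSC replicate 2. Kcnq1ot1 also had 0.052 without control 2. Malat1, a nuclear speckle RNA, had 4977 and 2645 CPM in the NSC immunoprecipitates and 10080, 13860 and 13770 CPM in the controls. Its groups did not overlap, but it did not pass the test (-1.72 ± 0.64, adjusted p = 0.078). The 3 higher RNAs were Dlx6os1 and Dlx1as, which lie beside Dlx genes, and Pantr1. Dlx1as rose by 2.14 ± 0.37 and Pantr1 by 1.30 ± 0.31 (adjusted p = 0.19 without NSC replicate 2). Without strand information in the sources used here, reads of Dlx1as and Dlx1 cannot be told apart where they overlap. No gene of the list was lower without NSC replicate 2.

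Of the 12 genes with the lowest differences among those with at least 20 CPM in the controls, 4 are annotated as protein coding in GRCm38.p6. Gm38020 had 1.72 and 0.410 CPM in the NSC immunoprecipitates, against 18.8, 31.4 and 20.2 CPM in the controls (-4.47 ± 0.77, adjusted p = 0.0018). The transcribed pseudogene Pisd-ps1 had 5.46 and 5.33 CPM in the NSC immunoprecipitates and 62.4, 28.8 and 85.3 CPM in the controls (-3.44 ± 0.51). The long noncoding RNA Gm26871 had 7.81 and 7.25 CPM, against 46.5, 53.1 and 53.3 CPM in the controls (-2.76 ± 0.39). All 3 were called without any 1 library and within the index. Of the other genes without a protein-coding annotation, Gm17066 (-2.84 ± 0.51) and C230071H17Rik (-2.77 ± 0.46) kept the call without any 1 library. Slc2a4rg-ps (-3.60 ± 0.72) had an adjusted p of 0.061 without NSC replicate 2. Ptprv (-3.31 ± 0.96) was lost without NSC replicate 2, control 2 or control 3 (adjusted p from 0.068 to 0.13), and Gm43696 (-2.84 ± 0.79) without these or NSC replicate 1 (adjusted p from 0.067 to 0.13). The protein-coding genes were Cntn5, a neuronal adhesion molecule (-2.68 ± 0.43), Cfap69, a cilium protein (-2.65 ± 0.50), Cyp27a1, a sterol hydroxylase (-2.63 ± 0.50), and Epha8, an ephrin receptor (-2.63 ± 0.79, adjusted p from 0.060 to 0.20 without either NSC replicate, control 2 or control 3).

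At the other end, a few high differences lay outside the lists. Pimreg, a mitotic regulator, rose by 4.68 ± 0.74. Krt73, a keratin, had 27.8 and 15.5 CPM in the NSC immunoprecipitates and 0, 0.153 and 1.58 CPM in the controls (5.15 ± 1.36, adjusted p from 0.051 to 0.080 without either NSC replicate or control 2). Edar, the ectodysplasin receptor, had 22.5 and 22.8 CPM in the NSC immunoprecipitates and 0, 2.75 and 0.431 CPM in the controls (4.39 ± 1.24, adjusted p from 0.061 to 0.10 without either NSC replicate or control 3). All values of both genes were higher in the NSC libraries than in the controls. In total mRNA of sorted NSC, from other libraries of the study, Krt73 had 0.184, 3.70 and 0.115 CPM. Edar had 47.5, 55.5 and 69.1 CPM there. Krt73 also had 8.36 and 6.92 CPM in the ENB immunoprecipitates. Neither gene was called in NSC over ENB (adjusted p = 0.51 for Krt73 and 0.084 for Edar, quasi-likelihood test). Of all genes called higher, 3 had no count in any control. The transcription factor gene Tfap2e had 3.12 and 6.57 CPM in the NSC immunoprecipitates. The mean of these was 31.7 times a floor of 3 counts over the 3 controls (0.153 CPM). Tfap2e lost the call without NSC replicate 2, control 2 or control 3. Gm6485 had 0.78 and 0.68 CPM and Spata5l1 had 0.31 and 0.82 CPM in the NSC immunoprecipitates. Their means were 4.79 and 3.70 times that floor, and both genes lost the call without any 1 library. Among the most abundant higher genes, the protease inhibitor Cst3 rose by 2.07 ± 0.40 and clusterin (Clu) by 2.48 ± 0.38, and both kept the call without any 1 library. Beta-actin (Actb) rose by 1.49 ± 0.40, brain creatine kinase (Ckb) by 1.38 ± 0.35 and tubulin Tuba1a by 1.82 ± 0.41, with adjusted p-values of 0.11, 0.095 and 0.093 without NSC replicate 2. Actb and Ckb were also lost without control 2 or control 3 (adjusted p from 0.068 to 0.083).

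The called genes were also described by features that the comparison did not use. In total mRNA of sorted NSC, measured in 3 other libraries of the study, 98.3% of the higher genes and 51.7% of the lower genes had at least 5 CPM in every library, against 59.3% of all genes tested. Genes annotated as protein coding were 98.0% of the higher and 88.9% of the lower genes with a biotype in GRCm38.p6, against 87.6% of all tested, and long noncoding RNAs were 1.55%, 7.72% and 7.64%. The median genomic span was 18.2 kb for the higher and 44.3 kb for the lower genes, against 21.5 kb for all genes tested. Over protein-coding genes alone the medians were 18.3, 53.2 and 24.9 kb. For the lower genes both biotype shares were close to those of all genes tested. Genes called higher need counts in the NSC libraries, and all genes tested include genes with few counts. The detection shares are thus not matched for level. All shares and spans here are descriptions without a test.

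Set against the ENB immunoprecipitates instead, in a direct test without control libraries, 924 genes were higher in the NSC immunoprecipitates (4.85% of those tested) and 655 lower (3.44%). Without NSC replicate 2 they numbered 269 and 370, without ENB replicate 1 they numbered 203 and 151, and without ENB replicate 2 they numbered 277 and 245. Without NSC replicate 1 the lower genes numbered 326. This comparison shares its NSC libraries with the one above, so the values are given side by side and no overlap is drawn from them. ENB replicate 1 had Spearman correlations of 0.954 and 0.946 with controls 2 and 3, and 0.943 with ENB replicate 2. ENB replicate 2 had 0.908, 0.937 and 0.93 with controls 1 to 3. Median differences of ENB over the control were 0.41 for radial glia, 0.13 for astrocyte, 0.62 for replication, 1.22 for mitosis and 1.19 for neuroblast genes. Where ENB lies near the control, the 2 comparisons are not separate. Against ENB, 13 of 25 radial glia genes, 9 of 21 activation genes, 20 of 52 replication genes, 10 of 52 mitosis genes and 11 of 18 astrocyte genes were higher and none lower. Without NSC replicate 2 these numbered 8, 3, 5, 2 and 3, without ENB replicate 1 they numbered 8, 3, 4, 2 and 3, and without ENB replicate 2 they numbered 7, 6, 9, 5 and 2. Of the neuroblast genes 1 was higher and 7 lower than in ENB, with 2 lower without ENB replicate 2. The prokineticin receptor Prokr2, chosen after its values were seen, had 0 and 4.24 CPM in the NSC immunoprecipitates, against 45.6 and 145 CPM in the ENB immunoprecipitates (NSC over ENB -5.43, adjusted p = 0.0023), and it had 2.13, 8.26 and 4.16 CPM in the no-HA controls. Prokr2 did not overlap between NSC and ENB, while NSC and the controls overlapped. Dcx had 81.6 and 145 CPM in the NSC immunoprecipitates, against 174 and 435 CPM in the ENB immunoprecipitates (-1.42, adjusted p = 0.032). Hes6 had 115 and 200.5 CPM in the NSC immunoprecipitates and 25.5 and 46.0 CPM in the ENB immunoprecipitates (NSC over ENB 2.14, adjusted p = 0.0062). Dlx1 had 170 and 269 CPM in the NSC immunoprecipitates and 90.8 and 357 CPM in the ENB immunoprecipitates, which overlapped (-0.03, adjusted p = 0.99).

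Ribosomal protein genes gave the widest gap between the 2 points of comparison. Against ENB, 74 of 81 were higher in the NSC immunoprecipitates and none lower, with a median of 1.59. Their sums were 26660 and 28850 CPM in the NSC immunoprecipitates, against 9602 and 10220 CPM in the ENB immunoprecipitates and 23320 to 39340 CPM in the no-HA controls. The 2 ENB sums lay below every NSC and every control library. The genes higher than in ENB numbered 24 without ENB replicate 1, 39 without ENB replicate 2, 52 without NSC replicate 2 and 72 with expected counts, a choice added after the data were seen, and the medians of these settings ran from 1.47 to 1.63.

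**Figure D4:**
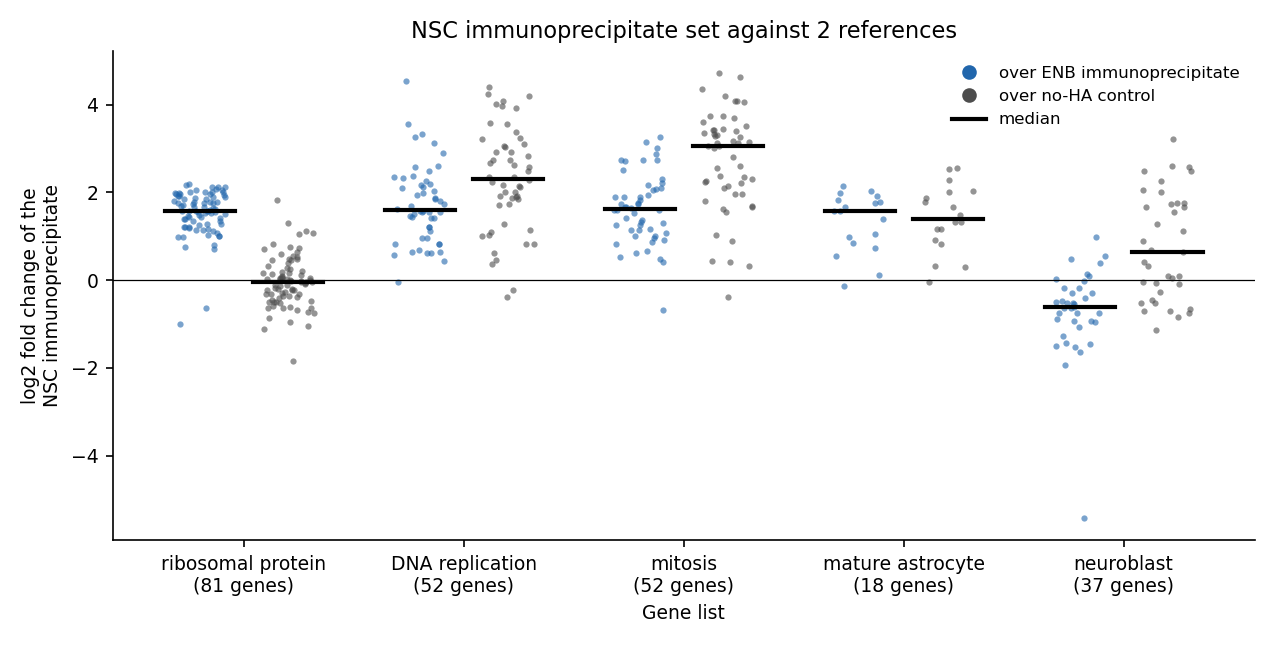
Log2 fold change of the NSC immunoprecipitates over ENB immunoprecipitates (blue) and over no-HA controls (grey) for the genes of 5 lists, with black bars at the medians. Ribosomal protein genes lie around -0.04 over the control and around 1.59 over ENB, while the medians of replication, mitosis and astrocyte genes lie above 0 in both, and the neuroblast median is -0.61 over ENB and 0.64 over the control.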

How the data were processed

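The authors deposited raw counts, expected counts and TPM per gene for 27 libraries. The submitters' processing notes name RSEM 1.2.21, Bowtie2 2.2.6 and GRCm38. The tool, strand setting and treatment of shared reads behind the raw counts are not given in the sources used here. Deposited raw counts were used for every test. The authors' expected counts, rounded to whole numbers, served as an alternative, and the authors' TPM values, which keep no depth, were used for no test. A few genes, such as Fdps and Rpl24, had raw counts near 0 beside high deposited TPM, so a low count does not show absence. All columns mapped to a sample (0 did not).

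Per the labels, dissected subventricular zone was homogenised without sorting, immunoprecipitated with anti-HA and made into poly(A) Smart-seq2 and Nextera XT libraries. In R 4.3.3, edgeR 4.0.16 fitted 1 quasi-likelihood model to all 15 immunoprecipitation libraries (TMM scaling, filterByExpr, Benjamini-Hochberg adjustment, threshold 0.05), and NSC was tested against the no-HA control and against ENB. The 15 libraries share 1 estimate of the spread. DESeq2 1.42.0, other scalings, other low-count filters, a fold of 2 as the null, the second index as a term, expected counts and leaving out each library were tried as alternatives. Library totals of 5960357 to 7734087 counts in the 5 libraries set the precision, and intervals from counts would cover counting error only.

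Lists are described by counts of calls and medians, without a test of the list. Members and lists were chosen with earlier results of these data known. Genes named by rule were Prss56, Fabp7, Mcm2, Nr2e1 and Rpl22, the 12 highest differences (at least 20 CPM in NSC, a count in at least 1 control, no overlap), up to 6 genes at 0 in all controls, the 10 most abundant with a log2 difference of at least 1, the 12 lowest differences (at least 20 CPM in the controls), and from each list the largest rise, the largest fall and members called against its direction. Other members were named after their values were seen, to show genes that kept or missed the call. Gene positions, biotypes and promoters are from RefSeq, GRCm38.p6.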

Additional observations from a re-analysis of the deposited data

Results flagged for a closer look

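The direct test between the 2 immunoprecipitates of tagged cells shares its NSC libraries with the no-HA comparison. It called 924 genes higher and 655 lower in the NSC than in the ENB immunoprecipitates. Among them 74 of 81 ribosomal protein genes were higher in the NSC immunoprecipitates, with a median log2 fold change of 1.59, and the same list had a median of -0.04 over the no-HA control. ENB replicate 1 carries another second index than both NSC libraries and ENB replicate 2. With the index as a term in the fit 64 ribosomal protein genes were higher (median 1.33), and without ENB replicate 1 there were 24 (median 1.60).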

How the results depend on the processing

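Of 1200 values of 71 named genes under the alternatives, 946 kept their side of the threshold and 254 kept direction but lost the call. None reversed with a call in either fit. Rpl22, which was not called, was counted as kept whatever its sign. The other 70 genes had passed the threshold in these same libraries, so an absence of reversals carries little weight. Against the no-HA control, DESeq2 called 2400 lower genes, the second index as a term left 717 higher and 459 lower, control 1 alone (within the index) left 339 and 139, and a fold of 2 as the null left 201 and 88. Leaving out 1 library gave 546 to 1880 higher and 504 to 1492 lower genes. Against ENB, leaving out 1 library gave 203 to 636 higher and 151 to 370 lower genes, and fitting only those libraries gave 297 lower genes. The share of higher genes found in sorted NSC was 99.3% at 1 CPM and 96.3% at 10 CPM, and that of lower genes 69.7% and 41.0%. Deviations from the group mean correlated between same-numbered NSC and control libraries at r = -0.0204 and -0.0104. The deviations of the 2 NSC libraries mirror each other, so these values are not separate checks of pairing. A fit with the replicate number as a block gave 1218 higher and 805 lower genes. A fit of only the 5 libraries compared gave 1333 higher and 862 lower genes against the no-HA control. The cause of these shifts was not tested. Of the 3 controls only control 1 shares the index of both NSC libraries; the fit with an index term also draws on other groups whose libraries differ in index. Genes with few counts are limited by depth.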

Other observations

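The following gene groups were chosen after their values were seen, so their counts are a description. Of 35 fatty acid oxidation and ketone synthesis genes 24 were higher in the NSC immunoprecipitates and none lower, beside 8.75% and 6.59% of all genes tested. The median was 1.53, and 1.35 without NSC replicate 2. Acsl3, which activates long-chain fatty acids, had 385 and 391 CPM in the NSC immunoprecipitates, against 125, 100.4 and 70.2 CPM in the no-HA controls (1.98 ± 0.22, adjusted p = 8.1e-05 by edgeR's quasi-likelihood test) and 174 and 181 CPM in the ENB immunoprecipitates. Both NSC libraries lay above all of these. The mitochondrial enzymes Acadl, Eci2 and Hadhb rose by 1.97 ± 0.27, 1.93 ± 0.24 and 1.63 ± 0.23, and each kept the call without any 1 library and within the index. Within the index 7 genes of the list were higher.

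Of 55 Wnt pathway genes tested 13 were higher and 1 lower (median 0.50), beside 8.75% and 6.59% of all genes tested. The secreted Wnt antagonist Sfrp1 had 151 and 236 CPM in the NSC immunoprecipitates, against 17.7, 7.50 and 7.75 CPM in the controls (4.14 ± 0.44) and 14.1 and 6.34 CPM in the ENB immunoprecipitates. Notum, a secreted enzyme that inactivates Wnt ligands, had 100.4 and 92.9 CPM in the NSC immunoprecipitates and 8.52, 2.45 and 2.58 CPM in the controls (4.42 ± 0.66, adjusted p = 0.058 within the index). The receptor Fzd2 rose by 3.47 ± 0.53 and Dkk3 by 2.79 ± 0.28. Prickle2, a planar polarity gene, was the lower member (-1.20 ± 0.24). The higher genes numbered 8 without NSC replicate 2 or control 3, and 6 within the index.

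Of 18 serine and glycine metabolism genes 10 were higher and none lower (median 1.57), beside 8.75% and 6.59% of all genes tested. The glycine decarboxylase Gldc rose by 2.95 ± 0.46 and the serine phosphatase Psph by 2.34 ± 0.39. Phgdh, the entry enzyme of serine synthesis, rose by 2.70 ± 0.75, with adjusted p-values of 0.084, 0.096 and 0.12 without control 2, control 3 and NSC replicate 2. The higher genes numbered 2 without NSC replicate 2, 6 without control 2 or control 3, and 0 within the index.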
